A study of Sus scrofa with 20 samples.

Results

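Described here are 10 pig genes of a growth factor system, out of 30345 genes counted in the uterus: the ligands MST1, HGF, AREG and HBEGF, the receptors MST1R, MET, EGFR and ERBB2, and the transcription factors ETV4 and ETV5. They were picked by name, and each had 1 row in the count table and passed the filter on low counts. The choice was made with differences between inseminated and control uteri already known, so every value against control is given as a description, with no test.

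Messenger RNA was sequenced from the uterus of 20 wild-type Large White by Landrace sows, with 5 sows in each group. The labels give a mean parity of 3.53 ± 1.12, not split by group. FR1 sows received the sperm-rich fraction of the boar ejaculate. FR2 sows received the rich and intermediate fractions, and FR3 sows the rich, intermediate and poor fractions. Control sows were not inseminated. Semen came from 3 Pietrain boars and was deposited past the cervix, on average 2.53 ± 0.74 times per sow. Tissue was taken 6 days after estrus began, and each library comes from a different sow. The question of the design is how the fractions present in the semen change the uterine transcriptome. Which sows held embryos was not available in the labels used here, so semen and early pregnancy cannot be told apart in any comparison with control.

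MST1R, also called RON, and MET are sister receptor tyrosine kinases. MST1 (macrophage stimulating protein) is the ligand of MST1R, and HGF (hepatocyte growth factor), typically made by stroma, is the ligand of MET on epithelium. Both ligands are secreted as inactive precursors that serine proteases cleave. EGFR is bound by AREG and HBEGF, which are shed from the cell membrane, and ERBB2 has no known ligand of its own and works as a partner of the other ERBB receptors. These receptors act through RAS, ERK and PI3K, and ETV4 and ETV5 are ETS factors of the PEA3 group that are commonly induced through ERK. In the mouse uterus, HBEGF is an early signal from the blastocyst and the epithelium at implantation.

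Library totals were between 33 and 62.9 M counts, and levels are CPM, counts per 1 M counts, scaled between libraries by TMM factors. Levels were not divided by gene length, so no gene is set against another by level. The summed level of 12 epithelial markers was between 1630 and 6582 CPM (median 3495) in the inseminated libraries and between 4223 and 7816 CPM (median 5339) in the control libraries, and no marker was at 0 in any library. FR1 library 1, FR1 library 4, FR2 library 3 and FR3 library 4 were lowest, with 1738, 1782, 2055 and 1630 CPM. Markers of stromal fibroblasts summed to 5359 to 19406 CPM in the inseminated libraries and 2261 to 9472 CPM in the control libraries. The controls also differed widely among themselves in the genes described here. Control library 5 was the lowest of them in MST1R, MET, EGFR, ERBB2 and ETV4, library 2 in MST1, AREG and HBEGF, and library 1 in HGF and ETV5. Control library 3 was the highest in MST1R, MET, ERBB2 and AREG, and library 2 in HGF and ETV4. In ETV5 libraries 2 and 3 were highest, in HBEGF library 4, and in MST1 and EGFR library 1. In whole tissue, fewer cells of a type and less RNA per cell cannot be told apart.

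The receptors MST1R and MET and the factor ETV4 had fitted log2 fold changes of -2.96, -2.96 and -3.49 in inseminated against control uteri, and for each of them 4 of the 5 controls lay above every inseminated library. ERBB2 (-0.76) and MST1 (-1.21) were lower by less. EGFR stood the other way, with 3 controls below every inseminated library. HGF averaged 2.09 ± 1.17 CPM in the 15 inseminated libraries and 1.96 ± 1.11 CPM in the 5 control libraries (SD). Of the 10 genes, 5 were called lower and none higher in inseminated against control uteri (edgeR, adjusted p below 0.05), beside a background of 11.1% of the 17745 genes tested that were called, 8.2% lower and 2.87% higher.

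**Figure D1:**
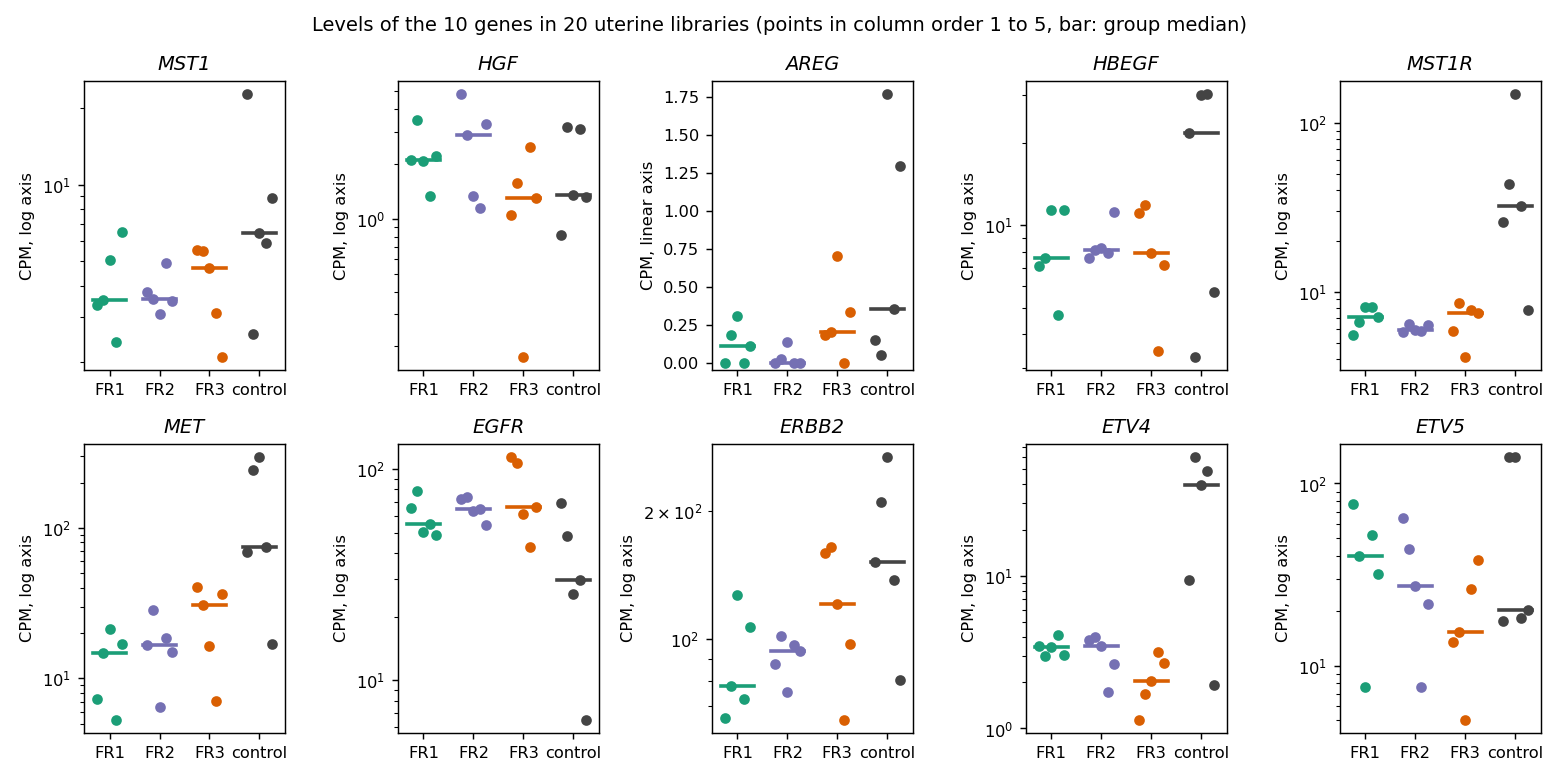
Level of each of the 10 genes in CPM in the 5 FR1, 5 FR2, 5 FR3 and 5 control libraries, on a log axis except for AREG, with a point per library and a bar at the group median. For MST1R, MET and ETV4 4 control points stand above all 15 inseminated points, while the lowest control point lies among them.

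Among the ligands, MST1 (gene identifier 100512987) was between 2.09 and 6.53 CPM in the 15 inseminated libraries, with a median of 3.55. In the controls it was 22.7, 2.58, 6.44, 5.87 and 8.82 CPM in libraries 1 to 5. Control libraries 1 and 5 were above every inseminated library and the other 3 lay within their range. Fitted across all sows, the log2 fold change of inseminated minus control was -1.21 ± 0.34 (SE) and was called. Without control library 1 it was -0.56 ± 0.30 and not called. In limma-voom it was -0.95 ± 0.35, again not called. Without control libraries 2, 3 and 4 it was -1.95 ± 0.33 and called, with only control libraries 1 and 5, the highest in MST1, left.

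HGF (100525120) was between 0.175 and 4.82 CPM after insemination, with a median of 2.07. The controls had 0.817, 3.19, 1.35, 3.1 and 1.32 CPM. All 5 controls lay inside the inseminated range, and the log2 fold change was 0.03 ± 0.45. The depth behind HGF was small, from 8 to 222 counts in the inseminated libraries and 39 to 148 counts in the controls. HGF was lowest in FR3 library 3, at 0.175 CPM, and highest in FR2 library 1.

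AREG (397668), amphiregulin, was near the limit of detection. It had no counts in 6 of the 15 inseminated libraries, where 3 counts would equal 0.0484 to 0.0729 CPM, and its median and highest values there were 0.109 and 0.701 CPM. The controls had 0.147, 0.0511, 1.77, 0.356 and 1.3 CPM, from 7, 2, 77, 17 and 56 counts. Control libraries 3 and 5 alone exceeded every inseminated library. On the log2 scale the difference was -2.75 ± 0.91 and was not called by edgeR. It was called by DESeq2, at -2.87 ± 1.08. Single libraries moved it: it was -2.12 ± 1.00 without control library 3, and it was called without control library 1 (-3.01 ± 0.96), control library 2 (-3.05 ± 0.94), FR2 library 3 (-3.44 ± 0.93) or FR3 library 3 (-2.98 ± 0.93).

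HBEGF (397564), heparin-binding EGF-like growth factor, was between 3.47 and 11.9 CPM after insemination, with a median of 7.95. The controls had 21.7, 3.3, 30, 30.2 and 5.72 CPM. They fell on both sides: libraries 1, 3 and 4 lay above every inseminated library and library 2 lay below all of them. HBEGF's log2 fold change of -1.11 ± 0.36 was not called by edgeR but was called by DESeq2. Without control library 2 it was -1.37 ± 0.31, and without control library 5 -1.35 ± 0.35, both called.

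Among the receptors, MST1R (100626292) was the most even gene across the inseminated uteri. It had 5.56, 6.61, 8.12, 8.14 and 7.08 CPM in FR1, then 5.8, 6.4, 5.92, 5.88 and 6.39 CPM in FR2, and 5.86, 8.54, 4.1, 7.78 and 7.49 CPM in FR3. In the controls it had 26, 43.4, 148, 32.4 and 7.78 CPM. The highest of the inseminated libraries was 2.09 times the lowest, against 19 times among the controls. Only control library 5 lay within the inseminated range.

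The log2 fold change of MST1R was -2.96 ± 0.34 over all inseminated sows, and it was called. Control library 3 set much of its size, since without it the value was -2.05 ± 0.25, again called. Without control libraries 2, 3 and 4 it was -1.32 ± 0.29, also called.

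MET (654328) varied more between sows. It had 7.24, 14.8, 21.2, 5.31 and 16.9 CPM in FR1, then 16.6, 28.4, 6.41, 18.6 and 14.9 CPM in FR2, and 40.5, 30.6, 16.4, 7.03 and 36.3 CPM in FR3. The controls had 68.6, 243, 296, 74.9 and 16.8 CPM. The 4 lowest inseminated values were those of the 4 libraries lowest in epithelial markers, and again only control library 5 fell among the inseminated libraries. MET differed by -2.96 ± 0.45 on the log2 scale and was called, and without control libraries 2, 3 and 4 it was -1.23 ± 0.52 and not called.

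EGFR (397070) was between 42.8 and 114 CPM after insemination, with a median of 64.3. The controls had 69.2, 48.2, 25.7, 29.7 and 6.51 CPM. Control libraries 3, 4 and 5 were below every inseminated library, a placing that 8.07% of all genes tested shared or exceeded. EGFR's log2 fold change of 0.91 ± 0.34 was not called. It was called without control library 1 (1.29 ± 0.35), in limma-voom (1.23 ± 0.35) and in DESeq2 (0.90 ± 0.32).

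ERBB2 (100516641) was between 64.9 and 164 CPM in the inseminated libraries, with a median of 97.3. The controls had 152, 209, 267, 138 and 80.2 CPM. Control libraries 2 and 3 alone lay above the inseminated range. ERBB2's log2 fold change of -0.76 ± 0.22 was called by edgeR but not by limma-voom. The call was lost without either of those 2 controls, or without FR1 library 1, FR1 library 2 or FR2 library 1, with values between -0.54 and -0.76.

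Among the factors, ETV4 (100516755) was low in the inseminated uteri and spread widely in the controls. It had 3.48, 2.99, 3.42, 4.08 and 3.03 CPM in FR1, then 3.8, 3.98, 3.45, 1.73 and 2.65 CPM in FR2, and 1.14, 1.69, 2.04, 3.19 and 2.67 CPM in FR3. The controls had 9.32, 60.1, 39.4, 48.8 and 1.94 CPM. Control libraries 2, 3 and 4 stood far above every inseminated library, library 1 above them by less, and library 5 within their range. ETV4 differed by -3.49 ± 0.41 on the log2 scale and was called. Without control libraries 2, 3 and 4 it was -0.96 ± 0.42 and not called. Those libraries were the highest controls for ETV4, MST1R and MET. Leaving them out makes each of these differences smaller by construction and keeps only control libraries 1 and 5.

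ETV5 (100623208) differed from ETV4 in which libraries were high. It was between 5.04 and 77.6 CPM after insemination, with a median of 27.4. The controls had 17.5, 140, 140, 18.2 and 20.1 CPM, so only libraries 2 and 3 exceeded the inseminated range and control library 4, high in ETV4, was not high in ETV5. The log2 fold change of -1.16 ± 0.54 was not called, and without control libraries 2, 3 and 4 it was 0.70 ± 0.75.

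Placings of at least 4 of 5 controls above every inseminated library, as for MST1R, MET and ETV4, were found for 2.29% of all genes tested, and of at least 3 of 5, as for HBEGF, for 7.68%. Since the genes were chosen for differences from control, nothing is read from these shares.

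**Figure D2:**
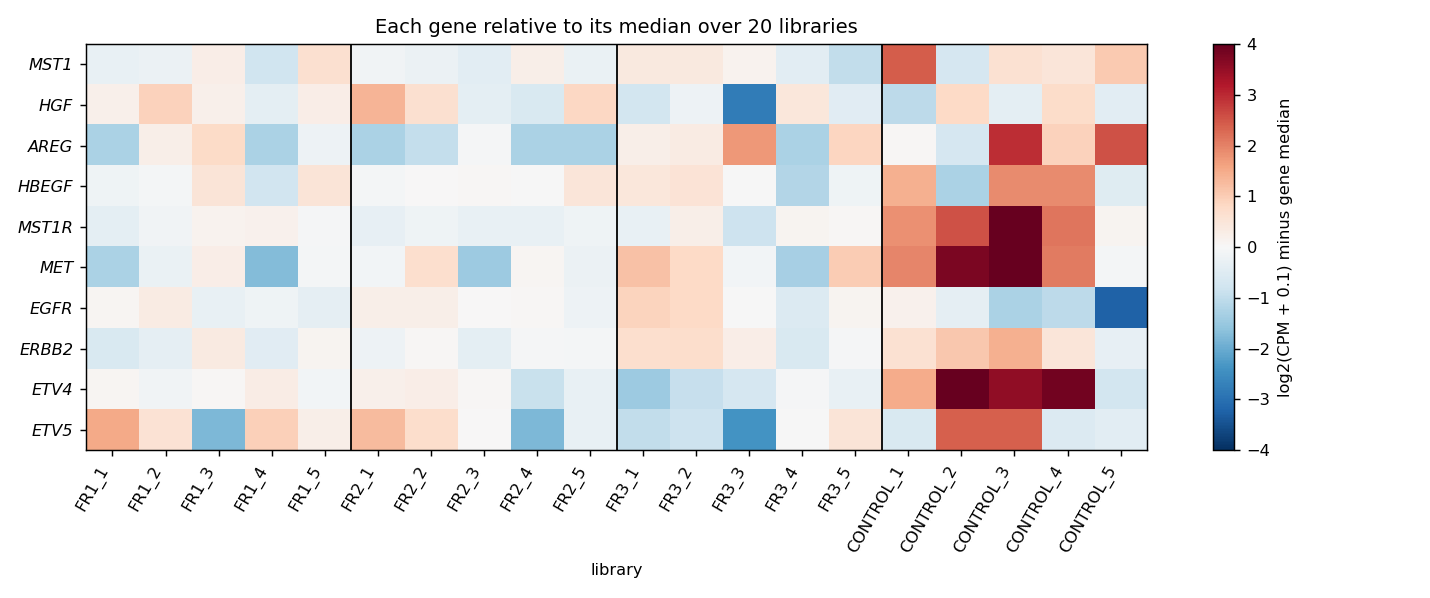
Level of each gene (rows) in each library (columns, inseminated groups to the left of control) as log2(CPM + 0.1) minus the median of that gene over the 20 libraries, with the colour scale stopping at 4 in either direction. Control libraries 2 and 3 are red in MST1R, MET, ETV4 and ETV5, control library 4 in ETV4 but not in ETV5, and control library 5 is pale or blue in all of these.

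Each inseminated group was also set against the same 5 controls. MST1R, MET and ETV4 were called lower in each of the 3 comparisons and no other of the 10 genes was. The backgrounds of genes called lower were 1.99% for FR1, 3.98% for FR2 and 2.85% for FR3. MST1R had log2 fold changes of -2.86 ± 0.50 in FR1, -3.08 ± 0.50 in FR2 and -2.93 ± 0.50 in FR3. MET had -3.42 ± 0.66 in FR1, -3.04 ± 0.65 in FR2 and -2.42 ± 0.64 in FR3. ETV4 had -3.23 ± 0.60 in FR1, -3.35 ± 0.60 in FR2 and -3.89 ± 0.62 in FR3. The values of the 3 groups share their controls and so are not independent of each other. The MET call in FR3 was lost in 11 of the 20 fits that left out 1 library. Over all 20 of those fits its log2 fold change was between -2.73 and -1.97. In fits of only the 10 libraries compared, none of the 3 genes was called in any group. The fold changes there were close to those above, with MST1R at -2.86 ± 0.64, -3.12 ± 0.64 and -2.94 ± 0.65, and of all genes 0, 1 and 0 were called.

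The comparisons between inseminated groups use no control values to set the difference, and they are tests. They ask whether adding the intermediate fraction (FR2 against FR1), the poor fraction (FR3 against FR2) or both (FR3 against FR1) changed these genes. Of the 10 genes, 0 were called in any of the 3, nor in the test of any difference among FR1, FR2 and FR3, by edgeR, DESeq2 or limma-voom. Of all genes, edgeR called 0%, 0.00564% and 0% in these comparisons, 1 gene in total, and 0% for any difference, where 130, 1307, 1471 and 933 genes had an unadjusted p below 0.05. DESeq2 called 0, 21 and 12 of all genes in these comparisons and 26 for any difference, and limma-voom 0, 1, 0 and 0. At an unadjusted p below 0.05, edgeR and DESeq2 each had 1 of the 10 genes in 1 comparison, AREG in FR3 against FR2, and limma-voom had none.

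AREG had 0.182, 0.205, 0.701, 0 and 0.333 CPM in FR3 against 0, 0.024, 0.134, 0 and 0 CPM in FR2. The log2 fold change was 3.01 ± 1.38, with a 95% interval of 0.09 to 5.93, and did not pass (edgeR adjusted p = 0.669). With the epithelial score as a covariate it was 1.02 ± 1.84.

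MET averaged 26.2 ± 14.1 CPM in FR3, 17 ± 7.87 CPM in FR2 and 13.1 ± 6.67 CPM in FR1 (SD, n = 5 each). FR3 minus FR1 was 1.00 ± 0.61 on the log2 scale, with a 95% interval of -0.30 to 2.30 (edgeR adjusted p = 0.634). FR3 minus FR2 was 0.62 ± 0.61, with an interval of -0.67 to 1.91 (edgeR adjusted p = 0.808). Neither difference passed, with 1 spread shared by all 4 groups, the controls at 16.8 to 296 CPM included. In fits of only the 10 libraries compared they were 0.99 ± 0.49 and 0.62 ± 0.46, again not called (edgeR adjusted p = 0.46 and 0.58). The median summed epithelial markers lay at 5916 CPM in FR3, 3182 CPM in FR2 and 3495 CPM in FR1, and with the epithelial score as a covariate the MET differences were 0.38 ± 0.54 and 0.06 ± 0.52.

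ERBB2 had a like order, at 121 ± 41.8 CPM in FR3, 91.1 ± 10.3 CPM in FR2 and 89.8 ± 25.8 CPM in FR1 (SD, n = 5 each). FR3 minus FR1 was 0.43 ± 0.29 (95% interval -0.17 to 1.04, edgeR adjusted p = 0.649), and 0.11 ± 0.24 with the epithelial covariate. EGFR was 78.2 ± 30.8 CPM in FR3, 65.5 ± 7.93 CPM in FR2 and 59.3 ± 12.4 CPM in FR1, and FR3 minus FR1 was 0.40 ± 0.39 (95% interval -0.44 to 1.23). Neither receptor was called between inseminated groups.

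HGF and both ETV factors had the opposite sign. HGF was 1.32 ± 0.837 CPM in FR3 and 2.7 ± 1.51 CPM in FR2 (SD, n = 5 each), a log2 difference of -1.03 ± 0.55 (95% interval -2.20 to 0.14, edgeR adjusted p = 0.678). ETV5 was 13.4, 15.2, 5.04, 26.3 and 38.1 CPM in FR3 against 77.6, 40.1, 7.64, 52 and 31.7 CPM in FR1. The groups overlapped, and the log2 difference of -1.09 ± 0.72 did not pass (95% interval -2.61 to 0.42, edgeR adjusted p = 0.648). ETV4 differed by -0.66 ± 0.56 between FR3 and FR1 (95% interval -1.84 to 0.52).

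MST1R, MST1 and HBEGF had differences of at most 0.22 between any 2 inseminated groups on the log2 scale. MST1R was 6.75 ± 1.78 CPM in FR3, 6.08 ± 0.296 CPM in FR2 and 7.1 ± 1.09 CPM in FR1 (SD, n = 5 each). Its log2 difference was -0.07 ± 0.47 for FR3 minus FR1 and -0.22 ± 0.47 for FR2 minus FR1, with intervals of -1.06 to 0.91 and -1.21 to 0.76. HBEGF differed by -0.02 ± 0.47 between FR3 and FR1 (interval -1.02 to 0.98), and MST1 by 0.00 ± 0.44 (interval -0.92 to 0.93). These intervals, like those of the other genes above, come from 1 spread shared by all 4 groups, the widely spread controls included. In fits of only the 10 libraries compared, MST1R was -0.08 ± 0.23 for FR3 minus FR1 and -0.24 ± 0.15 for FR2 minus FR1, again with no call (edgeR adjusted p = 0.899 and 0.997). For FR3 minus FR1 such fits gave ETV4 -0.67 ± 0.31, ETV5 -1.10 ± 0.59, ERBB2 0.43 ± 0.27 and EGFR 0.39 ± 0.26. None was called (edgeR adjusted p = 0.448, 0.486, 0.536 and 0.556). HGF was -1.03 ± 0.61 for FR3 minus FR2 (edgeR adjusted p = 0.494).

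**Figure D3:**
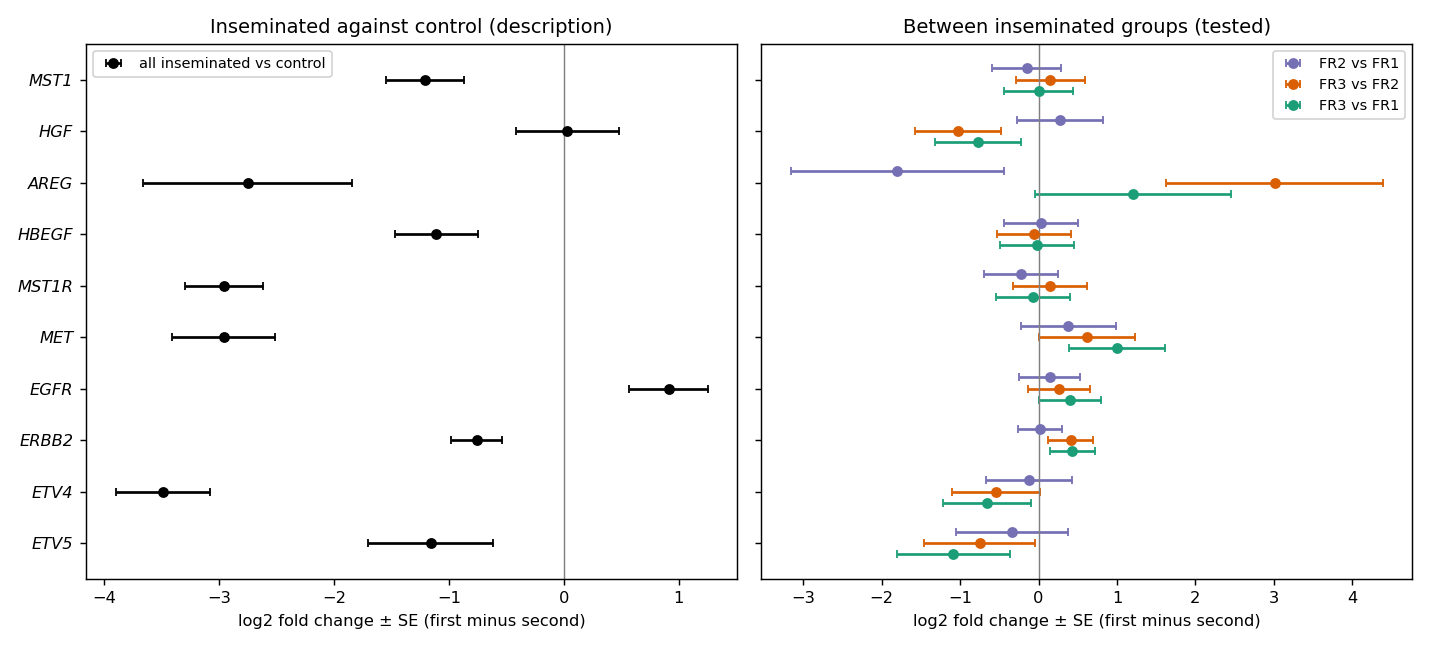
Fitted log2 fold changes with standard errors for the 10 genes, with all inseminated minus control on the left and the 3 comparisons between inseminated groups on the right. The left panel is a description, with MST1R at -2.96, MET at -2.96 and ETV4 at -3.49, and in the right panel no gene passed the test, the largest value being AREG at 3.01 for FR3 minus FR2.

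Some of these genes ran together across libraries. Across all 20 libraries the Spearman correlation between MET and ERBB2 was 0.90, and across the 15 inseminated libraries 0.84. ETV4 and ETV5 had 0.62 and 0.75, MST1 and HBEGF 0.67 and 0.72, and ERBB2 and ETV5 -0.19 and -0.59. These are descriptions over libraries that share their scaling and their mix of cells. MET and ERBB2 thus ran together in both sets of libraries, and ERBB2 ran opposite to ETV5 mainly among the inseminated ones.

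Per 1000 CPM of summed epithelial markers, a ratio chosen after the values were seen, MET was 2.66 to 8.5 (median 4.32) in the inseminated libraries and 8.78, 45.6, 49.1, 17.7 and 3.36 in the controls. MST1R was 0.665 to 4.77 (median 1.75) after insemination and 3.32, 8.13, 24.5, 7.67 and 1.56 in the controls. On this ratio 4 controls for MET and 3 for MST1R lay above every inseminated library, placings that 0.158% and 0.845% of all genes tested shared or exceeded on the same ratio. Because the genes were chosen for differences from control, nothing is read from these shares, nor from those of EGFR and HGF below. ERBB2 was 19.7 to 40.8 after insemination and 16.1 to 44.3 in the controls, with medians of 27.5 and 32.7.

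EGFR was 9.83 to 37.4 (median 18.8) on this ratio after insemination and 8.85, 9.03, 4.26, 7.04 and 1.3 in the controls, so all 5 controls lay below, as they did for 2.16% of all genes tested. The marker sum itself was higher in the controls, which lowers the ratio of any gene there. EGFR is also known in stroma, whose markers were higher after insemination, and their part in this ratio was not tested. HGF per 1000 CPM of fibroblast markers was 0.0327 to 0.319 (median 0.174) after insemination and 0.139 to 0.52 (median 0.361) in the controls, with 4 controls above every inseminated library, a placing that 5% of all genes tested shared or exceeded. The fibroblast sum was lower in the controls.

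With the epithelial score as a covariate in the fit, MST1R was -3.02 ± 0.45, MET -2.23 ± 0.48 and ETV4 -3.79 ± 0.52, all called. ERBB2 was -0.38 ± 0.22 and MST1 -0.71 ± 0.38, no longer called, and EGFR was 1.24 ± 0.40 and called. Without the 4 inseminated libraries low in epithelial markers, MST1R was -2.98 ± 0.42, MET -2.69 ± 0.43 and ETV4 -3.64 ± 0.50, all called. ERBB2 was -0.64 ± 0.22 and MST1 -1.08 ± 0.37 there, neither called.

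**Figure D4:**
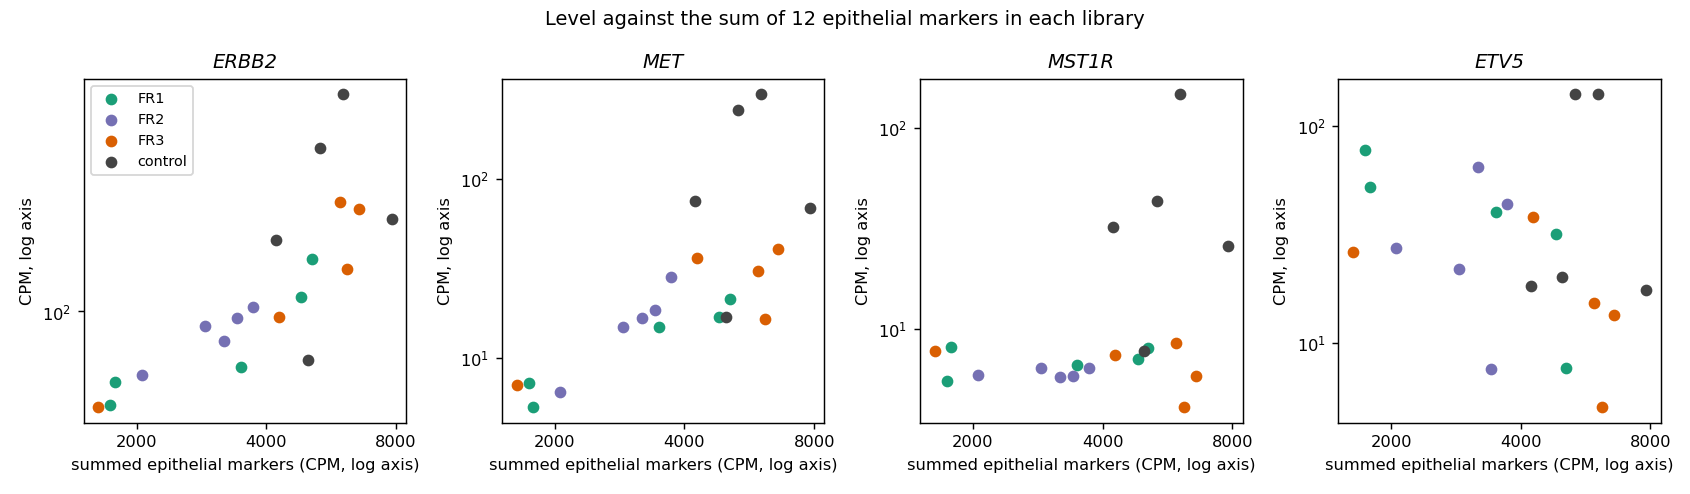
Level of ERBB2, MET, MST1R and ETV5 (CPM, log axes) against the summed level of 12 epithelial markers, with a point per library coloured by group. Inseminated points of ERBB2 and MET climb with the marker sum, those of MST1R lie flat between 4.1 and 8.54 CPM, those of ETV5 run downward, and 4 of 5 control points of MET and MST1R lie above the inseminated points.

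The genes whose levels ran most like each of these over the 20 libraries were as follows, by Spearman correlation. MET ran closest to UGT1A6 (0.98), DCBLD1 (0.96) and KIF21A (0.95), and ERBB2 to CEBPB (0.96), LIMK2 (0.96) and TTC22 (0.95). ETV5 ran closest to LOC102167255 (0.92), C4H8orf46 (0.89) and C15H2orf88 (0.89), EGFR to CAPN7 (0.88), SIMC1 (0.87) and SETD5 (0.87), and ETV4 to INF2 (0.86), SHB (0.85) and BCL9 (0.85). MST1R had weaker best matches in SLC7A9 (0.79), LOC102165115 (0.77) and CLYBL (0.75). The ligands ran closest to MICU2 (0.89, MST1), RUNX2 (0.84, HGF), C2H19orf66 (0.87, AREG) and APOBR (0.86, HBEGF).

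Over the 15 inseminated libraries alone, the closest genes were EPHA1 for ERBB2 (0.99), TMBIM4 for MET (0.98), FRMD6 for ETV5 (0.94), SS18L1 for MST1 (0.94), FAM161B for AREG (0.92) and RSC1A1 for EGFR (0.91). ASPN for HGF (0.90), TMEM139 for HBEGF (0.88) and ZNF575 for MST1R (0.80) followed. For each of these 9 genes the first match over 15 libraries differed from that over 20.

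Around these 10 genes, 98 further genes of the pathway were followed in 8 lists. The background over all genes was 8.2% called lower and 2.87% called higher in inseminated against control uteri. Of the genes that activate or hold back the MST1 and HGF precursors, 5 of 12 tested were called lower in inseminated against control uteri and none higher, with a list median of -0.65 against -0.05 over all genes. ST14 (matriptase), a protease that activates both, was between 35.6 and 136 CPM after insemination and 208, 179, 605, 289 and 79.1 CPM in the controls, with a log2 fold change of -1.61 ± 0.30. Its inhibitors SPINT1 (-1.42 ± 0.32) and SPINT2 (-0.72 ± 0.19) were also lower, though without control library 3 they were at -0.98 ± 0.30 and -0.63 ± 0.20 and not called.

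SERPINF2, the plasmin inhibitor, was low, at 0 to 0.651 CPM (median 0.216) after insemination and 0.715 to 6.02 CPM in the controls. All 5 controls lay above every inseminated library, as for no other gene of that list. At least 4 of 5 controls did so for 2.29% of all genes tested, and nothing is read from this placing. The log2 fold change of SERPINF2 was -3.02 ± 0.54 (-2.05 ± 0.55 without control library 4). PLAT, tissue plasminogen activator, was called at -3.72 ± 0.73 because of control library 4, which had 703 CPM where the other controls had 4.79 to 10.9 CPM. Without that library PLAT was at 0.57 ± 0.28 and not called. KLKB1 had no counts in any library and was not tested. The 5 lower calls of this list became 3 without control library 3, 0 without control libraries 2, 3 and 4 and 3 with the epithelial covariate. The shares of all genes called lower in those settings were 4.16%, 2.02% and 8.51%.

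Of the other ERBB receptors and ligands, 3 of 10 tested were called lower and none higher, with a median of -0.16, and each of the 3 calls was lost without 1 control. ERBB3, the usual partner of ERBB2, was 40 to 92.9 CPM after insemination and 53.8, 165, 875, 45.8 and 73.1 CPM in the controls. Its log2 fold change was -1.93 ± 0.44, and -0.39 ± 0.27 and not called without control library 3. ERBB4, a neuregulin receptor, was 0.351 to 2.88 CPM after insemination and 2.39, 8.69, 15, 3.86 and 0.556 CPM in the controls, 3 of them above every inseminated library. It was at -2.02 ± 0.49, and -1.37 ± 0.50 and not called without control library 3. EGF was at -4.03 ± 0.99, with 119 CPM in control library 2, and at -1.29 ± 0.98 and not called without it. EPGN, another EGFR ligand, was at 2.25 ± 0.79 and not called.

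Of 7 genes of ligand shedding, RHBDF2, a partner of the sheddase ADAM17, was the only one called, at -1.14 ± 0.22, and the list median was -0.12. ADAM17 was at -0.33 and not called. Of 14 adaptors and inhibitors, ERRFI1, which blocks the EGFR kinase, was the only one called, at -1.48 ± 0.36 (-0.87 ± 0.33 and not called without control library 3), with a list median of 0.05. Of 15 genes of the RAS, ERK and PI3K core, ARAF was called higher at 0.79 ± 0.24 and HRAS lower at -0.52 ± 0.17, with a median of 0.03. With the epithelial score as a covariate this list had 4 genes called higher and none lower, and the adaptors had 2 higher and none lower. That setting called 1468 of all 17745 genes higher and 1510 lower, against 510 and 1455 in the main fit. Both main calls of the core were lost when any of several libraries was left out, with control library 3 among them (0.67 ± 0.23 for ARAF and -0.40 ± 0.17 for HRAS).

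Of 20 genes that ERK signalling induces or that feed back on it, 11 were called lower and 1 higher, with a list median of -1.10, the lowest of the 8 lists. The phosphatases DUSP4, DUSP5 and DUSP6, the Sprouty genes SPRY2 and SPRY4, and FOSL1, EPHA2, IER3, ETV1, PLAUR and MMP7 were lower. IER3, an immediate early gene, was 0.936 to 11.3 CPM after insemination and 0.796, 213, 697, 129 and 6.16 CPM in the controls. DUSP4 was 1.56 to 9.08 CPM after insemination and 3.25, 16.9, 52.7, 65.8 and 3.7 CPM in the controls. In both genes control libraries 2, 3 and 4 were high and libraries 1 and 5 lay within or below the inseminated range.

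The log2 fold changes were -5.48 ± 0.76 for IER3 (-4.21 ± 0.71 without control library 3) and -2.65 ± 0.50 for DUSP4 (-2.06 ± 0.52 without control library 4), called each time. ETV1, the third PEA3 factor, was at -2.92 ± 0.56, with 106 CPM in control library 2, and at -1.46 ± 0.49 and not called without it. MMP7, matrilysin, was at -8.37 ± 1.43, with 455 CPM in control library 4, and at -3.52 ± 1.19 and not called without it. SPRED3, an inhibitor of RAS signalling, was the gene called higher, at 1.14 ± 0.27. DUSP5 was the only other of the 11 whose call held when any 1 library was left out, so IER3, DUSP4 and DUSP5 kept theirs and the other 8 did not. The 11 lower genes became 5 without control library 3 and 0 without control libraries 2, 3 and 4, where IER3 was at 0.45 ± 0.81. Over all genes the share called lower was 8.2%, and 4.16% and 2.02% in those settings. The list had 1 lower gene in limma-voom, 10 in DESeq2, 9 with the epithelial covariate and 8 without the 4 inseminated libraries low in epithelial markers, where all genes had 3.93%, 11%, 8.51% and 7.1%.

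Of 10 FGF ligands and receptors, 2 were called lower. FGF7, which the pig endometrial epithelium is known to make, was 0.153 to 2.02 CPM after insemination and 0.272, 398, 447, 3.44 and 1.09 CPM in the controls, a log2 fold change of -7.03 ± 0.91 (-6.26 ± 0.90 without control library 3). FGFR3 was 8.01 to 31.9 CPM after insemination and 53.9, 71.7, 19.7, 99 and 15.8 CPM in the controls, a log2 fold change of -1.93 ± 0.32. Of 8 epithelial ETS factors, ELF3 (-3.15 ± 0.39) and ELF4 (-1.50 ± 0.36) were called lower. ELF3 had 4 controls above every inseminated library, at 35.5, 88.9, 177 and 218 CPM against 5.71 to 25.7 CPM after insemination, and the ELF4 call was lost without control library 3 (-1.03 ± 0.38). Without control libraries 2, 3 and 4, FGF7 was at 0.94 ± 0.68, FGFR3 at -1.33 ± 0.37 and ELF3 at -0.95 ± 0.39, none called. Over the 8 lists together, 2 genes were called higher and 26 lower, beside 510 and 1455 of all 17745 genes. The list counts were 1 and 0 without those 3 controls, beside 142 and 381 of 18832 genes. With the epithelial covariate they were 14 and 20, beside 1468 and 1510 of 17745 genes. None of the 96 tested genes of the 8 lists was called between inseminated groups by edgeR, DESeq2 or limma-voom. Of all genes, DESeq2 called 21 in FR3 against FR2 and 12 in FR3 against FR1. At an unadjusted p below 0.05, edgeR had 2 of the 96 list genes in FR2 against FR1, 6 in FR3 against FR2 and 8 in FR3 against FR1. Of all 17745 genes it had 130, 1307 and 1471 in those comparisons, and nothing is read from the list counts.

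**Figure D5:**
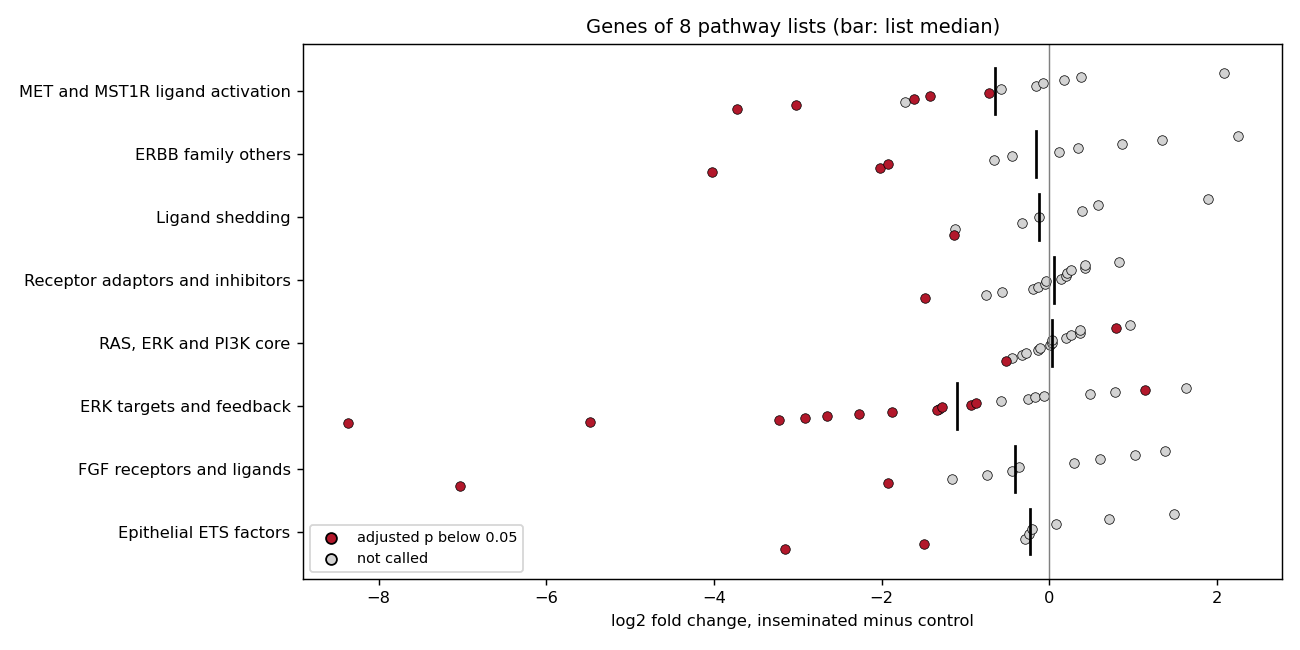
Fitted log2 fold change, inseminated minus control, for the tested genes of 8 pathway lists, with filled red points for adjusted p below 0.05 and a bar at each list's median. The genes of ERK targets and feedback reach furthest left, with 11 of 20 called lower, while the adaptors and the RAS, ERK and PI3K core have medians of 0.05 and 0.03.

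Beside these lists, 5 of 12 epithelial markers were called lower after insemination (median -0.75), 2 of 10 fibroblast markers higher (median 0.81), 1 of 9 macrophage markers lower and 2 of 6 neutrophil markers lower. The background over all genes was 8.2% lower and 2.87% higher. Without control library 3, CD14 among the macrophage markers (0.05 ± 0.25) and CSF3R among the neutrophil markers (0.31 ± 0.45) were no longer lower. Among the epithelial markers the calls of CLDN4 (-1.30 ± 0.46) and OVOL2 (-0.96 ± 0.29) were lost there too, with OVOL2 at -0.95 ± 0.26 in all libraries. None of 8 smooth muscle, 8 endothelial and 8 T and NK cell markers was called. Neutrophil markers summed to 1.43 to 17.1 CPM after insemination and 1.49 to 84.6 CPM in the controls, with S100A8 at 0 in libraries of both. The part of these cell types in the differences from control was not tested beyond the epithelial covariate.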

How the data were processed

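Poly-A RNA of 20 sows was sequenced, 1 library per sow. The authors deposited 1 estimated count (expected count) for each gene and library, made with Salmon 1.10.1, per the submitters' processing notes, which also list STAR 2.7.9a and CASAVA. Build and strand setting: not given in the sources used here. Counts were rounded, and 24 of 30369 rows that name no gene (at most 0.0133% of a library) were dropped. Columns show the group and a number, not the sow. The main test was edgeR 4.0.16 under R 4.3.3, 2-sided and quasi-likelihood, with TMM factors and filterByExpr, 1 fit over 20 libraries (16 residual degrees of freedom) and Benjamini-Hochberg adjustment over 17745 genes; a call is an adjusted p below 0.05. SE was derived from the log2 fold change and its F statistic. Fitted folds compare means, so 1 high library can set them. The procedure was tested on simulated counts. Alternatives were DESeq2 1.42.0, limma-voom (limma 3.58.1), RLE factors, 2 other filters, an epithelial score (mean log2 CPM of 12 markers) as covariate, and left-out libraries; those on pathway lists were chosen after seeing the data. Members and lists were chosen with earlier results of these data known. All 10 members are named, the 3 genes most correlated with each over 20 and over 15 libraries (for some only the first is printed, and 1 is not reported here), and up to 4 genes per pathway list by smallest p. Other list genes were named after their values were seen. The limit for a count of 0 covers counting error only.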

Additional observations from a re-analysis of the deposited data

Results flagged for a closer look

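Of 40 sets of 5 libraries (10 genes in 4 groups), 3 held a library set apart from the other 4 by Dixon's criterion, which chance alone meets in about 1 of 20 sets. MST1R was 148 CPM in control library 3, where the other controls had 7.78 to 43.4 CPM. AREG was 0.134 CPM in FR2 library 3, from 7 counts, where the other FR2 libraries had 0 to 0.024 CPM. HBEGF was 11.2 CPM in FR2 library 5, where the other FR2 libraries had 7.62 to 8.29 CPM. The first of these libraries sets much of the size of the MST1R difference from control, which was -2.96 ± 0.34 with it and -2.05 ± 0.25 without it.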

How the results depend on the processing

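No paired analysis was possible because the groups share no sow or replicate numbers in the labels. In all settings tried, 0 of the 10 genes were called between inseminated groups. DESeq2 called 0.119% of all genes in FR3 against FR2 and 0.068% in FR3 against FR1. Against control, the count of called genes was 5 for all inseminated sows, and 4 to 6 when 1 library at a time was left out. It was 8 with DESeq2, 4 with limma-voom and 2 without control libraries 2, 3 and 4. The shares of all genes called were 11.1% in the main fit and then, in that order, 16.3%, 7.37% and 2.78%. For FR1 the count was 3, with 3 to 4 when 1 library was left out. It was 0 with limma-voom and 0 without the 4 inseminated libraries low in epithelial markers. It was 1 without control libraries 2, 3 and 4, and 0 in a fit of only the libraries compared. The shares of all genes called for FR1 were 2.6% in the main fit and then, in that order, 1.04%, 0.121%, 1.1% and 0%. For FR2 the count was 3, and 6 with DESeq2 and 0 in a fit of only the libraries compared (5.55%, 11.9% and 0.00597% of all genes). It was 3 to 4 when 1 library was left out. For FR3 the count was 3, with 2 to 4 when 1 library was left out. It was 0 with limma-voom, 0 without control libraries 2, 3 and 4 and 0 in a fit of only the libraries compared. The shares of all genes called for FR3 were 4.27% in the main fit and then, in that order, 1.66%, 0.0372% and 0%. Over 39 results and up to 30 settings each, 56 values moved by more than a tolerance and 0 of the called ones changed sign. The cause was not tested. Differences between inseminated groups were followed only by call and sign, so shifts in size there are not among the 56. AREG for FR3 minus FR2, 3.01 ± 1.38 in the main fit, was between 1.02 and 5.39 over the settings tried. The tolerance was 1 SE for a log2 fold change against control and 1.5 times for a count. Calls could be lost or gained within that tolerance, as for ERBB2, MST1 and AREG. A filter of at least 1 CPM in 5 libraries left AREG out. Among all genes, 26% of those called between inseminated and control uteri were higher, against 46.7% with limma-voom and 49.3% with the epithelial covariate, and the median of all genes moved by less than 0.1 under every scaling.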
